A study of Mus musculus with 4 samples.

Results

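Circular RNAs (circRNAs) of mouse brain were examined where the circle reaches across more than 100000 bases of the genome. A circle was included when the deposited genomic length exceeded 100000 bases and both of its ends lay exactly on exon boundaries of 1 gene in the GENCODE M21 annotation of GRCm38. Of the 23980 circRNAs in the count table, 924 (3.85%) met both conditions, and they came from 336 host genes on 20 chromosomes. The table held 1337 circRNAs over the length limit in all. Of the others, 277 had 1 end on an exon boundary, 26 had ends on boundaries of different genes, and 110 had neither end on a boundary. The 924 are called long circles below. They are set against the 3549 circles of 100000 bases or less that had both ends on boundaries of the same hosts (327 of the 336 hosts had any).

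The circles were counted in 4 RNA sequencing libraries of mouse brain tissue. Core frontal and core occipital were the infarct core close to the frontal and the occipital lobe, and penumbra was cortex around the core, all taken 3 h into a lasting filament block of the middle cerebral artery (MCAO, middle cerebral artery occlusion), a model of ischemic stroke. RNA from 6 mice was pooled for each of these libraries. Sham, the control, was cortex from sham mice at positions matching core and penumbra, where the sources used here do not give the number and sampling time of the mice, nor the strain, sex and age of any mice. Each group had 1 library, so no value carries a replicate error, and every test compares libraries, not conditions. Intervals are 95% exact intervals that cover counting error only. They treat reads as independent, which reads that are PCR copies are not. In bulk tissue, fewer cells of a type and less RNA per cell cannot be told apart.

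A circRNA forms by back-splicing, when the spliceosome joins the splice donor at the end of a downstream exon to the splice acceptor at the start of an upstream exon. The introns between those exons are usually removed, so the genomic distance covered by a circle and the length of the RNA are different quantities. Neurons express many genes with very long introns, among them genes for synaptic adhesion and release proteins, and brain is a tissue known for abundant circRNAs.

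The back-splice junction is the only stretch of a circle that its linear host transcript lacks. The junctions of 6 long circles are shown, 4 because they are among the 20 most abundant (Ssbp2, Ntrk3, Sergef and Lrba) and 2 because they differed between libraries (Stk3 and Dennd1b). Each run gives, on the host strand, the last 25 bases of the downstream exon in lower case and the first 25 bases of the upstream exon in capitals, read from GENCODE M21 transcripts on GRCm38.
Ssbp2 exons 2 to 5: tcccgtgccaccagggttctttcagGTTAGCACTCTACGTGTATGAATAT
Ntrk3 exons 5 to 12: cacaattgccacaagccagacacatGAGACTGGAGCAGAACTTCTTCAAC
Sergef exons 2 to 10: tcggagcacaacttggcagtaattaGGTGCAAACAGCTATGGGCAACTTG
Lrba exons 5 to 37: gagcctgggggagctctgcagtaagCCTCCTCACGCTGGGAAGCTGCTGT
Stk3 exons 2 to 8: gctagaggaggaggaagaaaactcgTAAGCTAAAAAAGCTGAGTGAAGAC
Dennd1b exons 4 to 19: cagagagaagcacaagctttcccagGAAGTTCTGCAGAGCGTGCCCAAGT
In the genome the ends joined by these junctions were far apart. The Ssbp2 circle covered chr13:91524585-91642391 and the Lrba circle chr3:86291427-86445473, both on the plus strand. The Ntrk3 circle covered chr7:78356027-78462942 and the Sergef circle chr7:46515668-46635556, both on the minus strand. The Stk3 circle covered chr15:34999831-35115645 on the minus strand, and the Dennd1b circle chr1:139040000-139144000 on the plus strand. The annotation places both ends of all 6 on coding exons.

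Long circles were long in the genome and moderate in predicted RNA length. Their median span was 146594 bases, with a maximum of 496045, against 26116 bases for the shorter circles of the same hosts. With introns taken out, the median spliced length was 958.5 bases for the 894 long circles for which one transcript contained both ends, against 520 bases for the shorter circles. The median number of exons was 7 against 4. Of the 894, 342 held 2 to 5 exons, 301 held 6 to 10, 189 held 11 to 20 and 62 held more than 20. The interior exons are those of the annotated transcript with the most exons, since the junction alone does not show which exons a circle retains. Exon numbers follow that transcript.

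Introns made up nearly all of the span. The median exonic share of a long circle's span was 0.606%, against 2.45% for the shorter circles, and it ranged from 0.0431% to 13.1%. The largest intron inside a long circle had a median of 74710 bases, and 309 of the 894 contained a single intron of more than 100000 bases. Exonic GC content was the same to within a fraction of a percent, with medians of 48.3% and 48.2%. The spliced length was a multiple of 3, as a reading frame around the whole circle needs, in 327 of 894 long and 1425 of 3485 shorter circles.

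The ends of the size range showed how differently a large span can be built. Among the circles of largest span were Ctnnd2 exons 3 to 19 (492096 bases), Auts2 exons 2 to 5 (488377), Dmd exons 42 to 50 (477030) and Dlg2 exons 9 to 19 (476127). Ctnnd2 encodes a delta-catenin, Dmd encodes dystrophin and Dlg2 encodes the postsynaptic scaffold PSD-93. These 4 circles had 2 to 6 counts over the 4 libraries. The most exons were found in circles of Dync2h1 (70 exons, a motor of ciliary transport), Syne1 (53, a nuclear envelope spectrin-repeat protein), Macf1 (49, a microtubule-actin crosslinker), Mycbp2 (44, a ubiquitin ligase) and Lrba (43, a BEACH-domain protein of vesicle traffic). These had 2 to 8 counts each. Such circles rest on a few counts in all.

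The circles nearest to the length limit had few counts on both sides of it. Just under it lay Erc1 exons 17 to 20 at 99947 bases with 3 counts and Grm5 exons 5 to 9 at 99996 bases with 2 counts. Just over it lay Sox5 exons 4 to 8 at 100005 bases with 2 counts and a circle of the long noncoding RNA gene A230057D06Rik at 100074 bases with 3 counts.

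**Figure D1:**
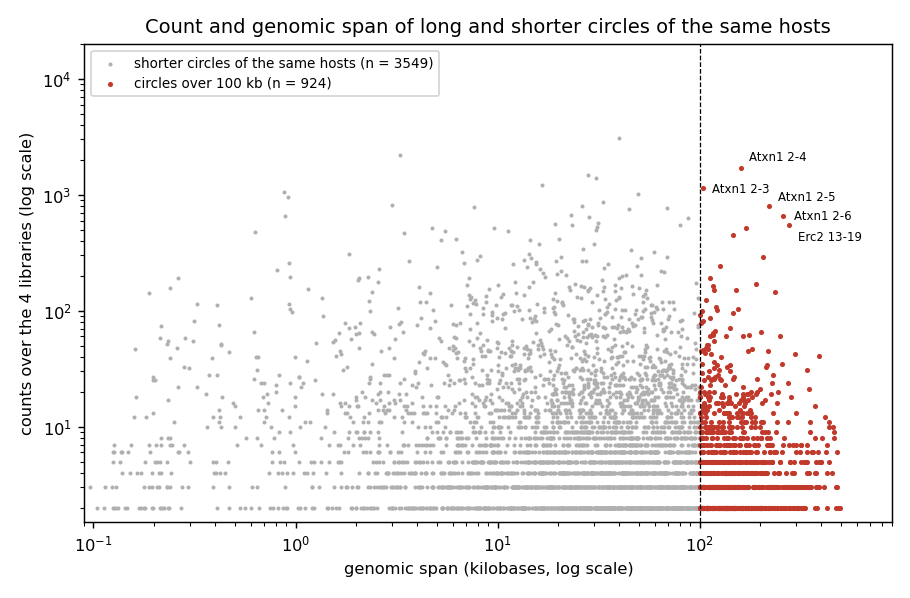
Counts over the 4 libraries (vertical axis, log scale) against genomic span in kilobases (horizontal axis, log scale) for the 924 long circles in red and the 3549 shorter circles of the same hosts in grey, with the length limit as a dashed line. Most long circles sit at 2 to 10 counts, while 4 circles of Atxn1 and 1 of Erc2 exceed 550.

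Most long circles were rare. Their median was 4 counts over the 4 libraries, against 6 for the shorter circles of the same hosts. The table lists no circRNA with fewer than 2 counts, and 221 long circles (23.9%) had exactly 2, against 15.6% of the shorter ones. At least 10 counts were reached by 212 long circles (22.9%) and 1371 shorter ones (38.6%). At least 100 counts were reached by 20 long and 190 shorter circles. All 4 libraries held 226 of the long circles (24.5%) and 1444 of the shorter ones (40.7%). Among circles with 10 or more counts the shares present in all 4 libraries were 83.0% and 90.0%. The plot of counts against span shows this concentration near the bottom of the scale.

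A few circles carried much of the count. The 4 most abundant long circles, all of Atxn1, held 28.3% of the 15151 long-circle counts, and the 20 most abundant held 51.8%. Ranked by counts per kilobase of spliced RNA, 12 of these 20 were again among the top 20.

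A larger share of long circles than of shorter ones started at exon 2 of the host. Of those with exon numbers, 335 (37.5%) had their acceptor at exon 2, against 430 (12.3%) of the shorter circles of the same hosts. By counts the shares were 63.0% and 24.9%. Of the 9389 counts of long circles starting at exon 2, 4285 came from Atxn1. Over the shorter circles of all genes, 23.3% of circles and 36.0% of counts started at exon 2. A start at exon 1 was assigned to 4 long circles, and none ended at the last exon. The introns outside the circle were also long, with a median of 44087 bases upstream and 33818.5 bases downstream, against 17266 and 17985.5 bases for the shorter circles. Among circles with 10 or more counts the upstream medians were closer, 24813 against 19625.5 bases. The downstream medians there were 40572 and 23185 bases. Both end exons were wholly coding for 638 long circles, 113 started in an untranslated exon and 118 in an exon that is partly untranslated.

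The splice sites of long circles were mostly shared with shorter ones. The acceptor of 697 long circles (75.4%) was also the acceptor of a shorter circle, and the donor of 607 (65.7%) was also the donor of a shorter circle. Both ends were used this way in 466 (50.4%), and neither end in 86. The 924 circles used 591 different acceptors and 748 different donors.

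The hosts were long genes, as the length limit requires, with a median annotated length of 404096 bases. Protein-coding genes made up 330 of the 336. Most hosts had few long circles: 153 had 1, and 57 had 5 or more. Hosts with many were Nbea, encoding the vesicle-traffic protein neurobeachin, and Dgki, a diacylglycerol kinase, with 16 each, and Anks1b and Erc2 with 13 each. Nearly all hosts made shorter circles too, and 9 had none.

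Long circles held a minor share of the counts of most hosts. Among the 91 hosts with 100 or more counts and a long circle of 10 or more counts, the median share was 12.3%, and 9 hosts exceeded 50%. Counting every host, 29 had more counts on long than on shorter circles, and in 39 the most abundant circle was a long one. High shares among the 91 were found for Atxn1 at 95.9% [95.3 to 96.4], Rbfox3 at 95.8%, Zbtb16 at 78.6% and Wdr70 at 62.2%. Rbfox3 encodes the neuronal splicing factor NeuN, with 136 of its 142 counts on circles of exons 2 to 3 and 2 to 4. The lowest were found for Rps6kc1 at 0.534% (12 of 2247 counts), Dtnb at 1.39%, Rere at 1.56%, Dennd1b at 2.14% and Arpp21 at 2.60%. Dtnb encodes beta-dystrobrevin and Rere a transcriptional corepressor.

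**Figure D2:**
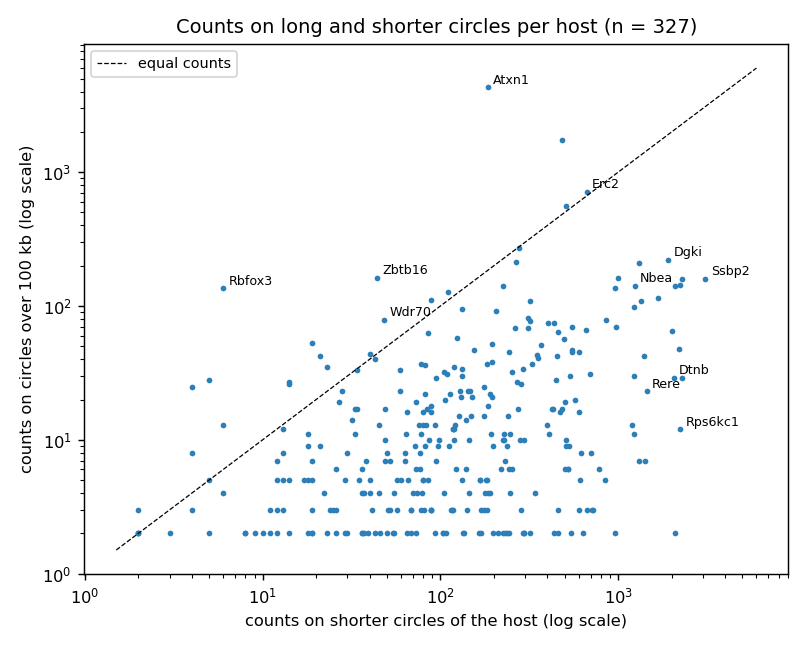
Counts over the 4 libraries on long circles (vertical axis) against counts on shorter circles (horizontal axis) for the 327 hosts that had both, on log scales, with a dashed line where the counts are equal. Atxn1 stands far above the line with 4309 long-circle counts, Rbfox3 and Zbtb16 are above it, Erc2 lies near it, and Rps6kc1 is far below it.

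Grouped by function, long circles were most widespread among adhesion genes. Of the 4898 genes with any circle on exon boundaries, 336 (6.86%) had a long one, and long circles held 4.10% of all such counts. Of 64 synaptic and neuronal adhesion genes with circles, 42 had a long one, and long circles held 11.8% of the list's counts. Members with long circles included the receptor phosphatase Ptprd (92 long-circle counts), the endocytic receptor Lrp1b (66) and Nrxn3 (58). The list contains many very long genes, which alone can hold a circle of this span.

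Presynaptic release genes had long circles in 10 of 25 hosts, with 12.2% of their counts. Most came from Erc2 (713), an active zone scaffold, and from Rims1 (159) and Rims2 (143), which tether calcium channels and vesicles at the active zone. Kinase, phosphodiesterase and lipid signalling genes had them in 17 of 44 hosts, with 18.1% of the counts. Most of the long-circle counts of that list came from a single host that is not reported here. Other hosts in it were Dgki (222), Stk39 (208) and Stk3 (77). Transcription, chromatin and RNA-binding genes had them in 21 of 48 hosts, with 5.96% of the counts, led by Ssbp2 (159), Rbfox3 (136), Foxp1 (128) and Celf2 (82).

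The other lists had long circles at low counts. Ion channel and calcium genes had them in 15 of 38 hosts (312 counts, led by the sodium-activated potassium channel Kcnt2 with 109). Postsynaptic scaffold genes had them in 9 of 23 hosts (324 counts, led by Lrrc7 with 68), and cytoskeleton and transport genes in 12 of 38 (193 counts, led by Myo9a with 45). Glutamate and GABA receptor genes had them in 8 of 31 hosts with 89 counts, of which the kainate receptor gene Grik2 gave 34. Long circles held 2.82% of the counts of the ion channel list, 3.86% of the postsynaptic, 3.02% of the cytoskeleton and 3.24% of the receptor list. Each of these shares was below the 4.10% over all hosts.

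Atxn1 was the main source of long circles. It encodes ataxin-1, a nuclear protein in which polyglutamine expansion causes a spinocerebellar ataxia. On the minus strand of chromosome 13, a single acceptor at exon 2 (position 45956575) was joined to the donors of exons 3, 4, 5, 6 and 7, and all of these circles contain one intron of 103998 bases. The circle of exons 2 to 4 (chr13:45795509-45956575) had 510, 318, 426 and 433 counts in core frontal, core occipital, penumbra and sham. That of exons 2 to 3 (chr13:45852328-45956575) had 278, 224, 343 and 300 counts in the same order. That of exons 2 to 5 (chr13:45735115-45956575) had 255, 158, 171 and 214. The circle of exons 2 to 6 (chr13:45697821-45956575) had 205, 130, 178 and 139 counts, and that reaching exon 7 had 1, 1, 1 and 0.

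Among circles on that acceptor, exons 2 to 4 led in every library, with 38.1% to 40.8% of the counts. The step to exon 7 adds a further long intron and brings the span to 390003 bases. The most abundant shorter circle of the gene, of exons 4 to 6, spans 97817 bases and so lies just under the length limit, with 128 counts (2.85% of the host).

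**Figure D3:**
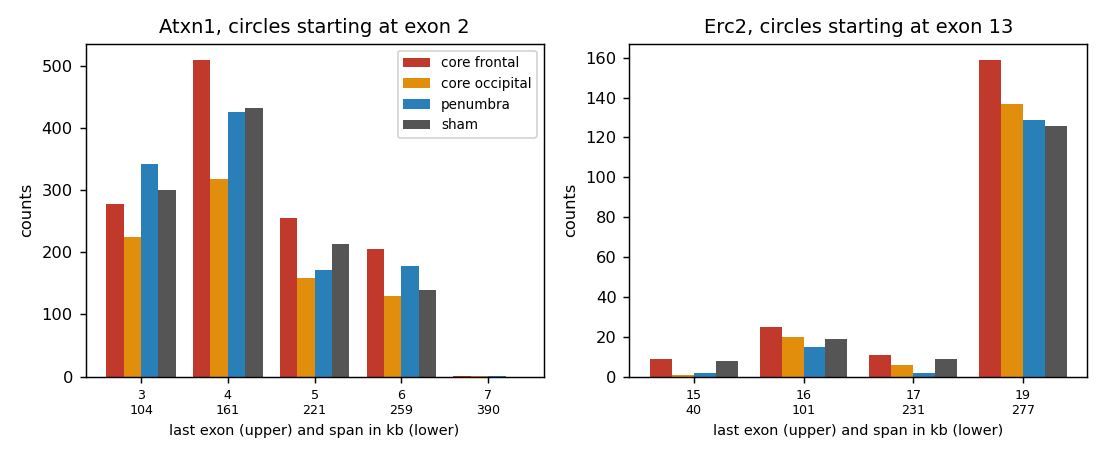
Counts in each of the 4 libraries for all circles that share 1 acceptor in Atxn1 (exon 2) and Erc2 (exon 13), ordered by the exon whose donor closes the circle, with the span in kilobases beneath. Bars are raw counts of single libraries without error bars, and the tallest bars stand at exon 4 in Atxn1 and exon 19 in Erc2.

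Erc2 preferred the farthest donor. The circle of exons 13 to 19 (chr14:28040343-28317314, plus strand, 276972 bases) had 159, 137, 129 and 126 counts in core frontal, core occipital, penumbra and sham. It held 81.3% of the counts on the exon 13 acceptor, whereas the circle of exons 13 to 16, 101039 bases, held 11.7%. The exon 19 donor was also used by a circle of 14439 bases from exon 18, with 408 counts, the next most abundant circle of the gene.

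The share of the host's counts on long circles ran from 94.7% in core occipital to 96.6% in sham for Atxn1, and from 48.4% in penumbra to 55.0% in sham for Erc2.

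Other hosts showed the opposite balance on a shared acceptor. In Ssbp2, which encodes a single-stranded DNA-binding protein of LIM-domain transcription complexes, the long circle of exons 2 to 5 had 51, 33, 29 and 39 counts in core frontal, core occipital, penumbra and sham. The circle of exons 2 to 4, 40110 bases, starts at the same exon and had 925, 500, 762 and 885, which is 94.3% of the host's counts. The 1 additional exon thus takes a circle over the length limit while the count is lower by more than an order of magnitude in every library.

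Other members of the 20 most abundant came from receptors, kinases and traffic proteins. Lrba gave a circle of 33 exons (5 to 37) and 5378 spliced bases, with 39, 18, 25 and 22 counts in core frontal, core occipital, penumbra and sham. Ntrk3, the receptor for neurotrophin-3, gave exons 5 to 12 with 29, 36, 37 and 21. Kcnt2 gave exons 4 to 14 with 21, 18, 34 and 28. All of these were present in all 4 libraries. Sergef, a secretion-regulating exchange factor, gave exons 2 to 10 with 108 counts in all. Stk39, a kinase that controls cation-chloride cotransporters, gave exons 2 to 14 with 100.

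The deposited FPKM values place these circles lower than their counts do, because FPKM divides by the genomic span with its introns. In sham the median rank of the long circles detected there was 7650 of 16226 by counts and 15704 by FPKM. The Atxn1 circle of exons 2 to 4 ranked 8 by counts and 1973 by FPKM. Long circles held 0.0644% of the FPKM sum in sham. Levels are therefore given here as counts, or as CPM, each count divided by the library's circRNA total and multiplied by 1000000.

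Long circles held a slightly larger share of circRNA counts in the 3 MCAO libraries than in sham. Over all circRNAs 121393, 83090, 96349 and 106558 counts were recorded in core frontal, core occipital, penumbra and sham. The share on long circles was 3.75% [3.64 to 3.85], 3.80% [3.67 to 3.93], 3.82% [3.70 to 3.95] and 3.53% [3.42 to 3.64] in core frontal, core occipital, penumbra and sham. The sham interval lay below those of core occipital and penumbra and met that of core frontal. As a share of the counts of the same hosts, long circles held 13.6% [13.2 to 13.9], 13.9% [13.4 to 14.4], 13.7% [13.3 to 14.2] and 12.7% [12.4 to 13.1] in the same order. Without the circles of Atxn1 the shares of all circRNA counts were 2.71%, 2.79%, 2.66% and 2.50%, still lowest in sham. There the sham interval [2.41 to 2.60] overlapped that of penumbra [2.56 to 2.76]. It lay below those of core frontal [2.62 to 2.81] and core occipital [2.68 to 2.91]. Between 593 (sham) and 616 (core frontal) of the 924 were detected in a library. Of all 23980 circRNAs, 16226 were detected in sham and 16611 in core frontal, the library with the most counts.

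These intervals understate the spread between libraries. For circRNAs with 100 or more counts over a pair of libraries, the mean squared deviation from equal shares was 2.00 to 4.16 times what counting error gives, depending on the pair. For the 9 to 10 long circles at that depth it was 1.57 to 5.50 times. With 1 library per group, variation between mice or preparations and an effect of MCAO cannot be told apart. All 11 neuronal marker genes had circles, summing to between 23799 and 26249 CPM per library. Of 7 astrocyte markers 3 had circles (122 CPM in sham, 214 to 249 CPM in the others), and Aqp4, Gfap, Gja1 and Slc1a3 were at 0. Of 9 oligodendrocyte markers 2 had circles (206 CPM in sham, 264 to 409 CPM in the others), all 6 microglial markers were at 0, and 1 of 6 endothelial and mural markers had 0 to 1 counts. Of 4 choroid plexus and ependymal markers 2 had circles, Ccdc30 and Cfap54, with 1774 CPM in sham and 1360 to 1672 CPM in the others. Ttr and Foxj1 of that list were at 0. The part of cell composition in the shares was not tested.

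**Figure D4:**
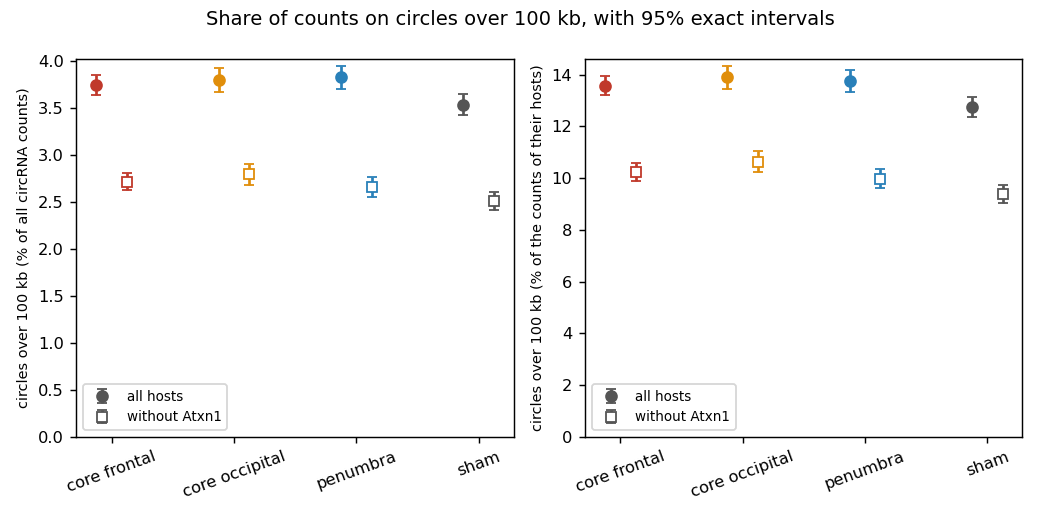
Share of circRNA counts on long circles in each library, as a percent of all circRNA counts (left) and of the counts of the same hosts (right), with 95% exact intervals that cover counting error only, for all hosts (filled circles) and without Atxn1 (open squares). On the left the filled circles run from 3.53% in sham to 3.82% in penumbra, and on both panels sham is the lowest library with and without Atxn1.

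Single circles were compared in all 6 pairs of libraries with a two-sided Fisher's exact test of the circle's share of the library, over every circRNA with 10 or more counts in the pair. A circle was called when its Benjamini-Hochberg adjusted p was under 0.05 and its CPM ratio was at least 2. A further test set each circle against the other circles of its own host, with an odds ratio of at least 2. The 3 comparisons with sham share that library, and any 2 pairs with a common library are not independent.

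No long circle was called against sham. In penumbra against sham 0 of 99 long circles tested were called, where 0.0538% of all 3717 circRNAs tested were. In core frontal against sham it was 0 of 120, with 0.747% of all called, and in core occipital against sham 0 of 96, with 0.467% of all called. At an unadjusted p under 0.05 the same Fisher tests gave 12, 17 and 8 long circles (12.1%, 14.2% and 8.33% of those tested), beside 11.3%, 14.2% and 12.6% of all circRNAs. The median log2 CPM ratio of the long circles tested was 0.15, 0.04 and -0.04, beside 0.01, 0.03 and -0.06 for all circRNAs. Shares near those of all circRNAs are no result about long circles.

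Between the MCAO libraries 4 long circles were called, of which 3 are described. In penumbra against core frontal 3 of 118 passed, 2 higher and 1 lower in penumbra, with 0.934% of all circRNAs called. In core frontal against core occipital 1 of 113 passed, lower in core frontal, with 0.344% of all called. In penumbra against core occipital 0 of 89 passed, with 0.0606% of all called. At an unadjusted p under 0.05 the Fisher tests gave 20, 13 and 11 long circles in these 3 pairs (16.9%, 11.5% and 12.4% of those tested), beside 12.8%, 11.8% and 7.03% of all circRNAs. The median log2 CPM ratios of the long circles were -0.09, 0.01 and 0.05 in these 3 pairs, beside -0.05, 0.07 and 0.01 for all circRNAs.

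Within hosts, 1 long circle was called. None of 98 passed in penumbra against sham (0% of all circRNAs tested), none of 117 in core frontal against sham (0.267%), and none of 94 in core occipital against sham (0.122%). None of 114 passed in penumbra against core frontal (0.243%) and none of 85 in penumbra against core occipital (0%). At an unadjusted p under 0.05 this Fisher test gave 13, 12, 7, 20 and 9 long circles in these 5 pairs (13.3%, 10.3%, 7.45%, 17.5% and 10.6% of those tested), beside 9.77%, 12.3%, 9.71%, 10.6% and 6.24% of all circRNAs. In core frontal against core occipital 1 of 111 passed (0.184%). The same Fisher test gave 12 long circles there at an unadjusted p under 0.05 (10.8%), beside 9.37% of all circRNAs.

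Dennd1b encodes an exchange factor that activates Rab35. Its circle of exons 4 to 19 had 5, 14, 20 and 7 counts in core frontal, core occipital, penumbra and sham (41.2, 168, 208 and 65.7 CPM). It was 5.04-fold higher in penumbra than in core frontal [1.84 to 17.2] (adjusted p = 0.0390, Fisher's exact test). The within-host odds ratio was 4.89 and did not pass (adjusted p = 0.0997, Fisher's exact test). The most abundant circle of that host, exons 4 to 9 on the same acceptor, had 188, 156, 171 and 158 counts. The call was lost with no count filter (5.04-fold, adjusted p = 0.212, Fisher's exact test) and with edgeR's exact test when libraries are assumed to vary by a coefficient of 0.2 (4.93-fold, adjusted p = 0.541). With a minimum of 30 counts over the pair the circle was not tested, having 25.

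Stk3 encodes MST2, a kinase of the Hippo pathway. Its circle of exons 2 to 8 had 33, 7, 6 and 18 counts in core frontal, core occipital, penumbra and sham, highest in core frontal and low in core occipital and penumbra. It was 4.37-fold lower in penumbra than in core frontal [1.81 to 12.7] (adjusted p = 0.0345, Fisher's exact test). The within-host test did not pass (adjusted p = 0.156, Fisher's exact test). The call was lost without a count filter (4.37-fold lower, adjusted p = 0.187, Fisher's exact test). It was also lost with the GC trend removed (3.92-fold lower, adjusted p = 0.0615, exact binomial test) and with edgeR's exact test (4.30-fold lower, adjusted p = 0.541).

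Zbtb16 encodes the zinc finger transcription factor PLZF. Its circle of exons 2 to 4 (chr9:48717283-48833099, minus strand) had 31, 28, 56 and 47 counts in core frontal, core occipital, penumbra and sham, and held most of the counts of its host. It was 2.28-fold higher in penumbra than in core frontal [1.44 to 3.65] (adjusted p = 0.0321, Fisher's exact test). Relative to the other circles of Zbtb16 the odds ratio was 1.35 (adjusted p = 0.920, Fisher's exact test), on few counts of those other circles. The call was lost without a count filter (2.28-fold, adjusted p = 0.174, Fisher's exact test). It was also lost with the GC trend removed (1.81-fold, adjusted p = 0.173, exact binomial test) and with edgeR's exact test (2.27-fold, adjusted p = 0.707).

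A smaller difference rested on many more counts. The Atxn1 circle of exons 2 to 3 was 1.55-fold higher in penumbra than in core frontal [1.32 to 1.83] (adjusted p = 8.37e-05, Fisher's exact test), under the ratio needed for a call. Within Atxn1 its odds ratio was 1.55 (adjusted p = 0.00379, Fisher's exact test).

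**Figure D5:**
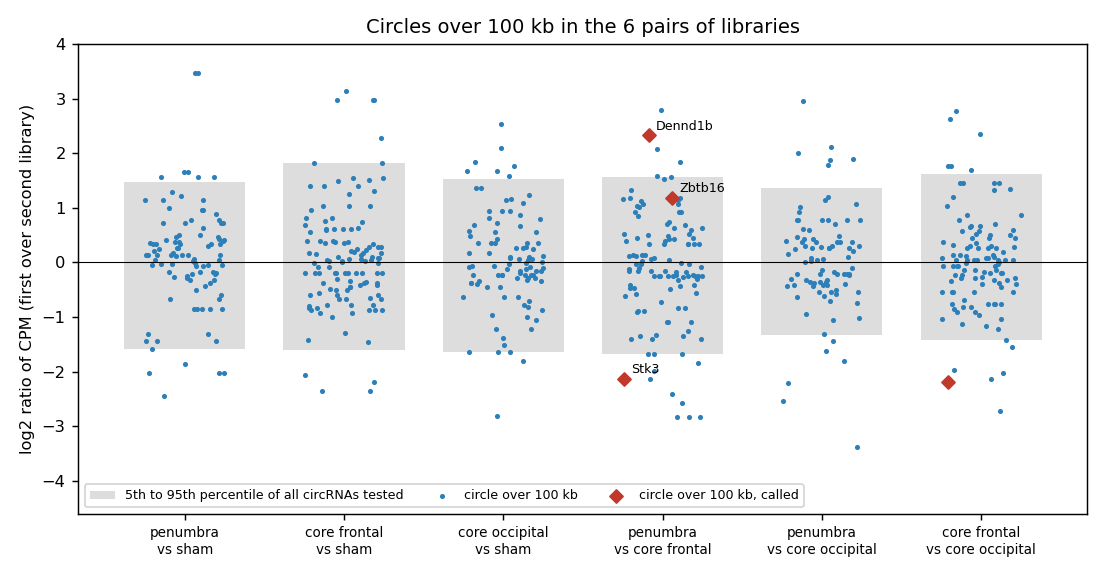
The log2 ratio of CPM (first over second library) for each long circle tested in the 6 pairs of libraries, with grey boxes from the 5th to the 95th percentile of all circRNAs tested and red diamonds for called circles. Called circles named in the plot are Dennd1b and Zbtb16 above 0 and Stk3 below 0 in penumbra against core frontal.

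By function list, of 18 long circles in the kinase, phosphodiesterase and lipid list that were tested in at least 1 pair 1 was called (Stk3, lower in penumbra than in core frontal). None of 15 presynaptic, 11 transcription and RNA-binding, 6 postsynaptic, 4 ion channel and 3 cytoskeleton circles was called, and no receptor gene circle had enough counts to be tested. Over all hosts 163 long circles were tested in at least 1 pair and 4 were called. Of all circRNAs tested, 0.0538% to 0.934% were called per pair. At that rate the calls in such small lists are no result about the lists. Dennd1b and Zbtb16 belong to none of the lists.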

How the data were processed

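The deposited count table holds whole-number counts per circRNA without normalization, with a genomic length (start to end) per circRNA. The FPKM values deposited by the authors equalled counts divided by that length and by the library total, and were used only for ranks. Per the submitters' processing notes TopHat2 2.0.10, Bowtie and mm9 were named. The coordinates lay on GRCm38 exon boundaries (89.1% of starts, 89.7% of ends, 0.196% of starts after moving by 1 base), so GRCm38 was used. The sources used here name neither the circRNA caller nor the kind of read counted. All 4 libraries of the table were used. The table gives no strand, so the host's strand was taken, and antisense or overlapping hosts cannot be told apart. Only 1 long circle had more than 1 candidate gene.

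Members and gene lists were chosen with earlier results of these data known. Named were the 20 most abundant long circles, the 5 of largest span and of most exons, called circles, the 5 leading hosts by number, by counts and at each end of the share, the 4 leading hosts per list, the 2 circles on each side of the length limit, and related shorter circles. Junctions were printed only where both end exons are wholly coding, which left out Atxn1 and Zbtb16, among others. Some genes that these rules select are not reported here. Tests used Python 3.11.15 with scipy 1.17.1, with adjustment over all circRNAs having 10 or more counts in the pair (and 10 or more on the host's other circles for the within-host test). A library at 0 was set to 3 counts (24.7 to 36.1 CPM) for a ratio. The tests were run on simulated counts with counting error only, so spread between libraries was not part of that check. Alternatives were TMM (edgeR 4.0.16) and DESeq2 1.42.0 size factors, and removal of a GC trend with an exact binomial test. A further one was edgeR's exact test with the coefficient of variation set to 0.2. The rest were other count filters, fold and span limits, end sides, and host counts with 1-end circles added.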

Additional observations from a re-analysis of the deposited data

How the results depend on the processing

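No result reversed, 104 alternative values stayed near the reported one, 31 moved, and 11 ended a call of a named circle. Called long circles in penumbra against core frontal, 3 as reported, numbered 0 without a count filter, 1 with the GC trend removed, 0 with edgeR's exact test at a variation of 0.2, 0 over 150000 bases and 4 at a ratio of 1.5 (Atxn1 exons 2 to 3 was added). In core frontal against core occipital, 1 as reported, they numbered 0 without a filter, 0 with edgeR and 0 over 150000 bases, and within hosts 0 without a filter and 0 over 150000 bases. Core occipital against sham gave 1 with 30 or more counts, and within hosts 1. With the GC trend removed the Zbtb16 ratio was 1.81 (adjusted p = 0.173, exact binomial test) and Stk3 did not pass (adjusted p = 0.0615, exact binomial test). Library shares over 150000 bases were 2.06%, 1.99%, 1.92% and 1.86% in core frontal, core occipital, penumbra and sham. The sham interval at that limit [1.78 to 1.95] overlapped those of core occipital [1.89 to 2.08] and penumbra [1.84 to 2.01]. It lay below that of core frontal [1.98 to 2.14]. Without Atxn1, an alternative chosen after seeing the data, the library shares were 2.71%, 2.79%, 2.66% and 2.50% in the same order. Shares of host counts were 12.5%, 12.6%, 12.6% and 11.6% among circles with 10 or more counts, 12.6%, 12.8%, 12.7% and 11.8% with 1-end circles added, and 10.2%, 10.6%, 9.98% and 9.39% without Atxn1. TMM scaling shifted the median log2 ratio by up to 0.12. The end-side rule kept all 924 circles, so its values could only equal the reported ones. The limit of 150000 bases only takes from the circles called, so a pair with 0 calls stayed at 0. Both kinds of value are among the 104. The cause of these movements was not tested beyond the smaller numbers tested or kept. No paired analysis was possible because each group has 1 library, and for the same reason no replicate could be left out. Depth limits single circles: 3 counts correspond to 24.7 to 36.1 CPM.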
